A study of Mus musculus with 15 samples.

Results

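The clustered protocadherin genes of the mouse were examined in peak lists from thymocytes. They were taken as the protein-coding genes on chromosome 18 whose symbol starts with Pcdha, Pcdhb or Pcdhg, and 24 of the 22350 protein-coding genes of the annotation met this rule, 2 of the alpha, 21 of the beta and 1 of the gamma family. The series holds 15 samples. The 5 lists used here come from wild type C57BL/6 mice and primary CD4+CD8+ thymus cells that lack CD69, and comprise 1 CTCF, 2 Rad21 and 2 H3K27ac ChIP-seq libraries. Hi-C samples of CTCF knockout, double knockout and wild type cells and 2 input samples were not analysed here. All 5 lists share one genotype, so there is no comparison between conditions, and every result below is a description of these libraries with no test. The sources used here do not state the age or sex of the mice, or whether animals were pooled.

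Clustered protocadherins are cell adhesion proteins of the cadherin superfamily. In neurons each cell uses a few of the many alternative promoters of the cluster, and the resulting surface combination is known for self-avoidance of neuronal processes. In the alpha and gamma families a large variable exon, with its own promoter, is spliced to constant exons shared by the family, whereas beta genes consist of a single variable exon. CTCF, a zinc finger protein that binds DNA, and cohesin, the ring complex of which Rad21 is a subunit, are known in neural cells to occupy many of these promoters together with distant enhancers. H3K27ac is a histone mark of active promoters and enhancers.

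The identity of the cells was checked with marker lists. All 8 thymocyte marker genes that could be matched (Cd4, Cd8a, Cd8b1, Rag1, Rag2, Cd3e, Bcl11b and Tcf7) had an H3K27ac peak in both replicates within 2000 bp of a transcription start site (TSS). None of 7 neuron markers had an H3K27ac peak in either replicate. Of all protein-coding genes, 44.7% had such a peak in replicate 1 and 43.0% in replicate 2. Peaks that overlapped between both replicates were present at 41.5%. At least 1 replicate had an H3K27ac peak at 1 of 5 myeloid markers (Itgam) and 1 of 5 markers of thymic epithelium and stroma (Epcam). The part of other cell types in the results was not tested. On chromosomes 1 to 19 and X there were 35345 peaks for CTCF, 38430 and 48462 in the Rad21 replicates and 38700 and 24765 in the H3K27ac replicates. Sequencing depth is unknown. A fold is the enrichment that the authors' peak caller gave to a peak, and is used here within a list only.

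At the level of annotated genes, few protocadherins carried any mark. CTCF peaks lay within 2000 bp of a TSS in 3 of 24 genes, against 26.4% of all protein-coding genes. The 3 genes were Pcdhb4, Pcdhb6 and Pcdhgc5. Rad21 peaks were present at 1 of 24 genes in replicate 1, against 36.2% of all genes, and at 1 in replicate 2, against 43.6%. Regions where Rad21 peaks of both replicates overlapped, called shared, were present at 1 of 24, against 31.5% of all genes. CTCF overlapped a shared Rad21 region at 1 of 24, against 19.3%. H3K27ac was present at 1 of 24 genes in replicate 1, against 44.7%, and at 0 in replicate 2, against 43.0%. Shared H3K27ac regions were present at 0, against 41.5%. Every Rad21 and H3K27ac entry in these counts belonged to Pcdhgc5.

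The gene counts depend on how the annotation is drawn. The alpha genes are merged in it into a model named Pcdha11 with 10 transcript starts, beside a separate Pcdha3, and the gamma genes into a model named Pcdhgc5 with 10. Over transcript starts instead of genes, 7 of 46 member TSSs had CTCF, against 21.6% of 70018 TSSs, and 4 of 46 had shared Rad21, against 28.3%. The gamma model held 4 of the 7 TSSs with CTCF and all 4 with shared Rad21.

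To follow single promoters, long open reading frames on the strand of the genes were used as a second unit, each standing for a variable exon. The scan found 58 frames of at least 2000 bases that resemble annotated members, namely 14 alpha, 22 beta and 22 gamma. Of these, 40 start at or shortly after an annotated member TSS. RefSeq lists the same numbers of genes, 14, 22 and 22, on another build, but frames were not assigned to those gene names. Frames are numbered in genome order within a family. They share a similarity of 3.59% to 60.7% of their 5-residue peptides with another annotated member frame, against at most 0.480% in the 6 frames that were left out. Starts lie at a median of 7160 bp from each other. This unit was chosen after the data were seen.

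Most frames with a peak were gamma frames, as the bar plot of shares shows. In the alpha family 0 of 14 frames had a peak of any of the 5 lists within 2000 bp of the frame start. In the beta family 2 of 22 had CTCF and 0 had Rad21 or H3K27ac. In the gamma family 11 of 22 (50%) had CTCF, against 21.6% of all TSSs. Rad21 was found at 9 gamma frames (40.9%) in replicate 1 and at 11 (50%) in replicate 2, against 32.9% and 40.6% of all TSSs. The 9 were shared between replicates, and 7 of them overlapped CTCF (31.8%), against 15.5% of all TSSs. H3K27ac was present at 1 gamma frame (4.55%) in replicate 1, against 44.6% of all TSSs, and at 0 in replicate 2, against 42.0%. Shared H3K27ac regions were present at 0 of the 58 frames, against 40.2% of all TSSs. The difference between families was not tested.

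**Figure D1:**
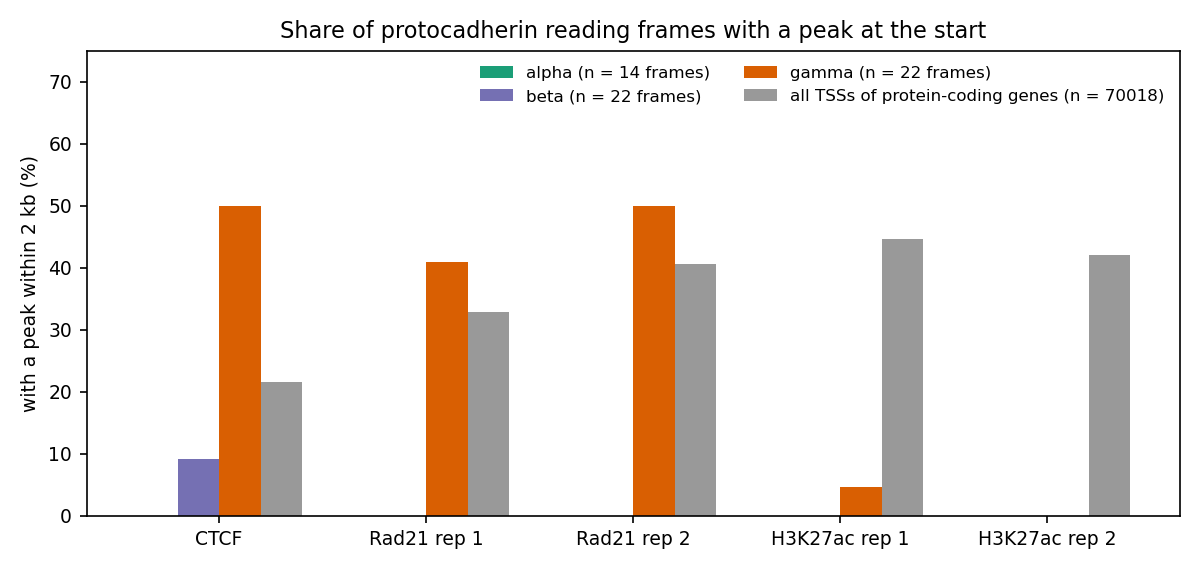
Share of reading frames with a peak within 2 kb of their start (vertical axis, percent) for each peak list (horizontal axis), in 14 alpha, 22 beta and 22 gamma frames and at 70018 TSSs of protein-coding genes. Alpha frames have no bar because 0 of 14 had a peak, CTCF stands at 50% of gamma frames, and H3K27ac is at or below 4.55% in all 3 families.

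The alpha genes lie at the start of the cluster, from 37089939 to 37347311 of chromosome 18 (mm9), a span of 257373 bp. No Rad21 or H3K27ac peak of any replicate was found in it. A single CTCF peak, at 37308542 to 37308748, lies in an intron of the Pcdha11 model, 5092 bp after the start of the last alpha frame. Its fold was 2.88, which is the 12.6th percentile of the CTCF list, and its −log10 q was 0, so it does not pass a q of 0.05. The 100000 bp before the alpha genes held 0 peaks in all 5 lists, as did the 77340 bp between alpha and beta. Gm6756, with a TSS in the sequence before the cluster, and Gm10545, inside the alpha span, had no peak within 2000 bp of a TSS. Pcdha3 and Pcdha11, the annotated members of the family, thus had no peak within 2000 bp of a TSS.

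The beta genes span 37424652 to 37681073. CTCF peaks were found before Pcdhb4 (37466953 to 37467088, fold 2.61, 7.12th percentile) and before Pcdhb6 (37493413 to 37493543, fold 2.88, 12.6th percentile). Summits lay 277 bp before the frame start at Pcdhb4 and 207 bp before it at Pcdhb6. Both peaks had a −log10 q of 0. No Rad21 peak of either replicate overlapped them. The other 19 beta genes, from Pcdhb1, the first, to Pcdhb22, the last, had no peak of the 5 lists near a TSS.

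Across alpha, beta and the neighbouring sequence, Rad21 was missing over a long stretch. From 36962919 to 37803291, 840373 bp, no Rad21 peak was called in either replicate, and in replicate 1 alone the stretch measured 917124 bp. This was the 482nd longest of 54307 such stretches in the genome (0.888%) and the 16th longest on chromosome 18. Windows without Rad21 were common, however. Of 4290 consecutive windows as long as alpha and beta together (591135 bp), 22.5% had no Rad21 peak in either replicate, and 39.0% no shared H3K27ac region.

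**Figure D2:**
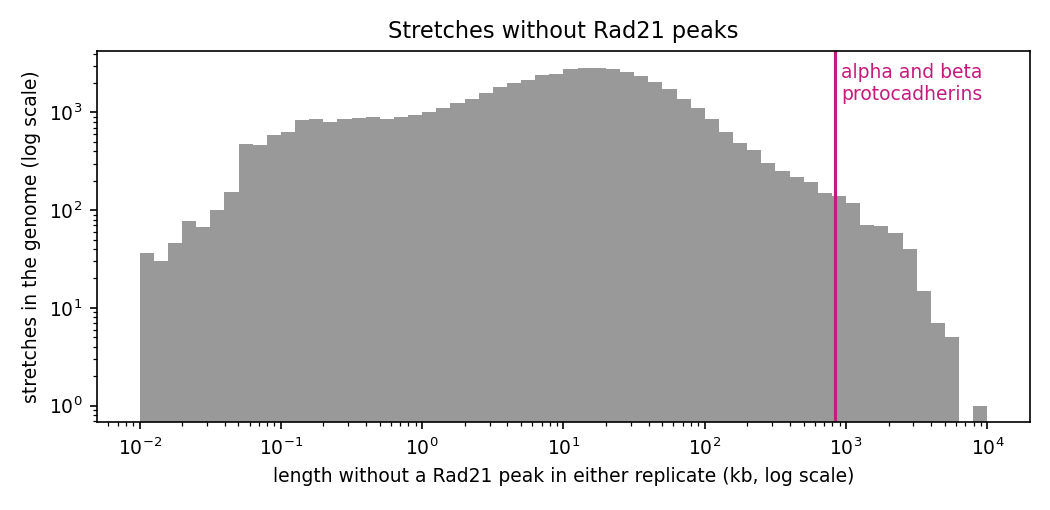
Histogram of the lengths of stretches without a Rad21 peak in either replicate (horizontal axis, kb, log scale; vertical axis, number of stretches, log scale). The vertical line marks the 840 kb stretch over the alpha and beta genes, the 482nd longest of 54307.

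Between beta and gamma, 152915 bp separate the annotated models. This interval held 1 CTCF peak, at 37710495 to 37710695, with a fold of 2.085 (0.598th percentile) and a −log10 q of 0. Taf7, a subunit gene of the general transcription factor TFIID, lies there and had H3K27ac peaks in both replicates (folds 2.08 and 4.32) and a Rad21 peak in replicate 2 (fold 5.27). Slc25a2, a mitochondrial carrier gene, and 3222401L13Rik had no peak within 2000 bp of a TSS. The first gamma frame also falls in this interval, since the gamma model starts at 37833989, and had a Rad21 peak in replicate 2 alone (fold 5.61, 284 bp before the frame).

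CTCF and Rad21 peaks were dense over the gamma genes, as the map of the cluster shows. The gamma model (37833989 to 38001527, 167539 bp) held 12 CTCF peaks, against a median of 1 in 15115 windows of the same length, and 1.32% of windows had at least as many. Rad21 was called 12 times in replicate 1 and 13 times in replicate 2, and 4.51% and 6.08% of windows had at least as many. Both replicates shared 11 regions, and 3.29% of windows had at least as many. CTCF overlapped 8 of these 11, against 65.9% of 30959 shared Rad21 regions in the genome. H3K27ac had 4 peaks in replicate 1 and 1 in replicate 2, with 1 shared region. At least as many were found in 26.9%, 41.8% and 38.1% of windows, so H3K27ac was not dense here. The whole cluster with its flanks held 24 CTCF peaks and 18 shared Rad21 regions. Of 2274 windows of that length (1111589 bp), 22.9% had at least as many CTCF peaks. At least as many shared Rad21 regions were found in 30.1%, so the density was a feature of the gamma part and not of the whole cluster.

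**Figure D3:**
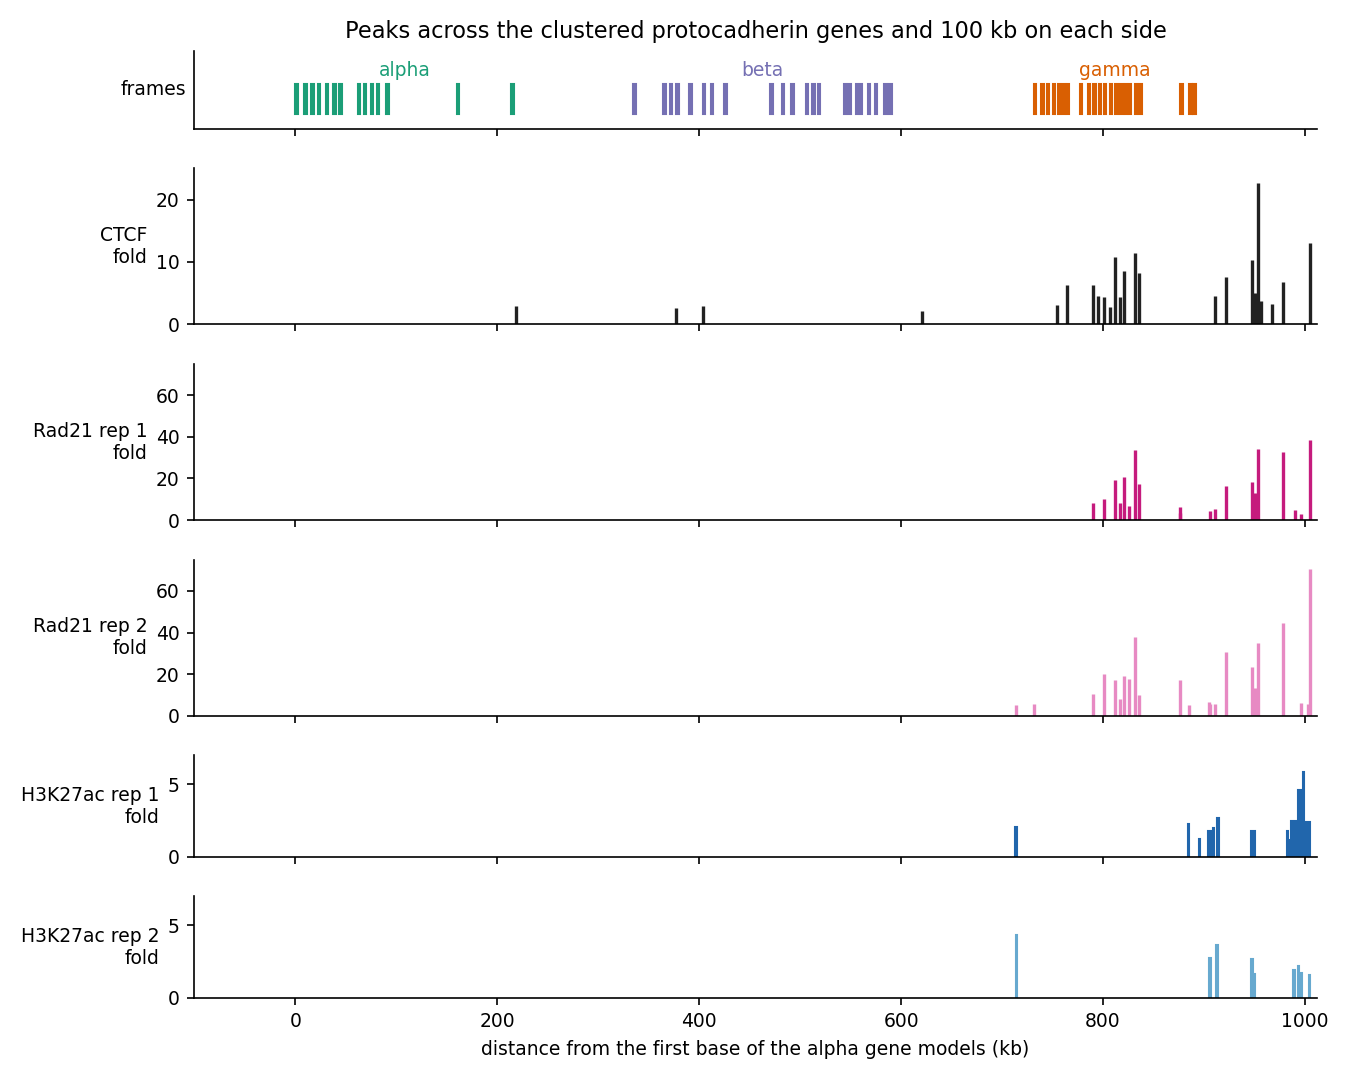
Peaks of the 5 lists (vertical lines or boxes, height in fold enrichment) along the cluster and 100 kb on either side, with the 58 reading frames above (horizontal axis, kb from the first base of the alpha gene models). CTCF and Rad21 peaks are crowded over the gamma frames and after them, and Rad21 has no peak over the alpha and beta frames.

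Within the gamma family the marks were found mostly in the middle of the row. Frames 10 to 19 held 9 of the 11 gamma frames with CTCF and 8 of the 9 with shared Rad21. Frames 1 to 9 had CTCF at 2 and Rad21 at 0 in replicate 1 and 1 in replicate 2. Frames 20 to 22 had CTCF at 0 and shared Rad21 at 1, and frame 20 starts 40431 bp after the start of frame 19. These blocks were drawn after the values were seen and are a description only.

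Single gamma frames differed widely. Frame 18 (37921533 to 37923764) had the highest values of the family, at 11.5-fold enrichment for CTCF and, for Rad21, 33.6-fold in replicate 1 and 37.9-fold in replicate 2. Those stand at the 82.0th percentile of the CTCF list and at the 94.5th and 94.9th of the Rad21 lists. Frame 14, an annotated transcript of Pcdhgc5, was enriched 10.8-fold for CTCF and 19.4-fold and 17.0-fold for Rad21. At frame 16 the values were 8.59-fold for CTCF and 20.7-fold and 19.3-fold for Rad21. Over their whole lists the median folds were 5.78 for CTCF and 7.74 and 7.61 for Rad21.

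The other frames with CTCF and shared Rad21 had lower CTCF folds, and their Rad21 folds are given for each replicate. Frame 15 had Rad21 folds of 8.10 and 8.17, with CTCF at 4.32. Frame 10 had 8.37 and 10.5, with CTCF at 6.31. Frame 12 had 10.1 in replicate 1 and 19.9 in replicate 2, with CTCF at 4.38, and frame 19 had 17.5 and 9.72, with CTCF at 8.26. Folds of the 2 replicates come from lists with different numbers of peaks and were not compared with each other.

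CTCF and Rad21 did not always coincide, here or in the whole genome. Shared Rad21 was met by 63.6% of the 11 gamma promoter CTCF peaks and by 58.2% of all CTCF peaks. Of all 30959 shared Rad21 regions, 10559 had no CTCF. Frames 5, 7, 11 and 13 had CTCF peaks (folds 3.14, 6.33, 4.56 and 2.75) with no Rad21 peak in either replicate. The CTCF peaks at frames 5 and 13, 2 of these 4, do not pass a q of 0.05 (−log10 q of 0.479 and 0). Of the 11 gamma promoter CTCF peaks, 9 pass it (81.8%), against 70.9% of all CTCF peaks. Frames 17 and 20 had shared Rad21 without CTCF, with folds of 6.96 and 17.6 at frame 17 and 6.40 and 17.2 at frame 20. The 7 gamma frames with both had CTCF folds of 4.32 to 11.5 (median 8.26), and the 4 with CTCF alone of 2.75 to 6.33 (median 3.85). These ranges overlap. Frames 2, 3, 4, 6, 8, 9 and 22 had no CTCF, Rad21 or H3K27ac peak within 2000 bp.

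**Figure D4:**
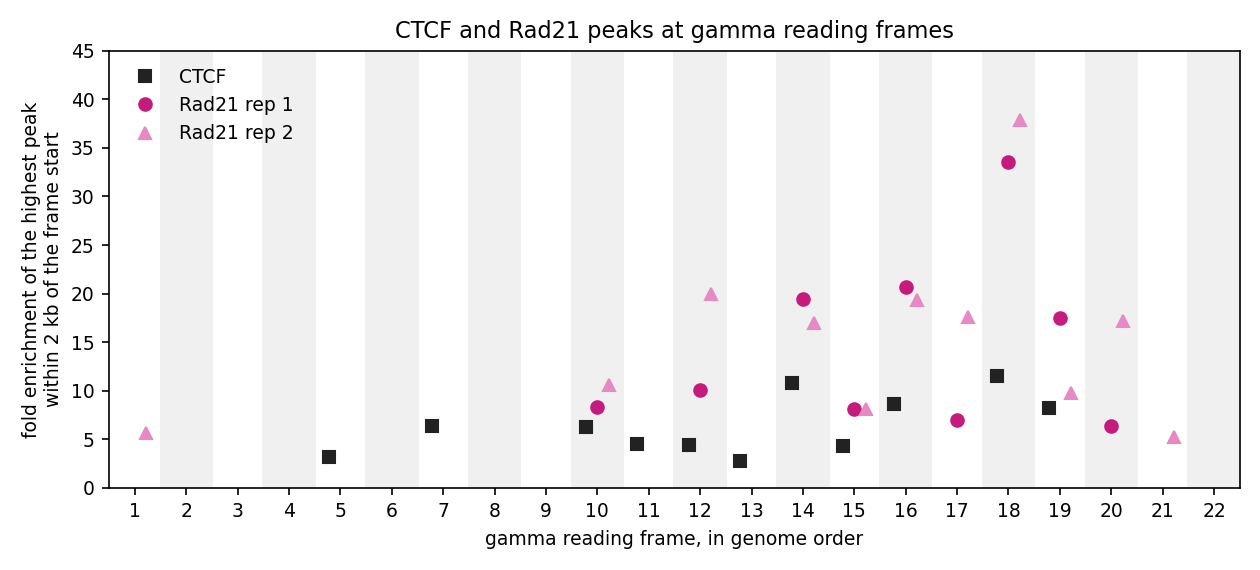
Fold enrichment of the highest CTCF, Rad21 replicate 1 and Rad21 replicate 2 peak within 2 kb of each gamma frame start (vertical axis) against the frame number in genome order (horizontal axis). Missing symbols mean that no peak was called, and frame 18 stands highest in all 3 lists.

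The highest peak of each list within 2000 bp of a frame start sat at nearly the same distance from the start codon in each gamma promoter. Its place relative to an annotated TSS varied. The CTCF summit at frame 19 (37925538) lies after the TSS (37925234), and that at frame 11 (37885326) before it (37885360). CTCF summits of the 11 gamma frames were 178 to 273 bp before the start codon of the frame, with a median of 233 bp. Rad21 summits were 183 to 249 bp before it in replicate 1 (9 frames) and 157 to 284 bp in replicate 2 (11 frames). At the 7 frames with all 3 lists, Rad21 summits were within 46 bp of the CTCF summit in replicate 1 and within 26 bp in replicate 2, with medians of 21 and 12 bp. A frame start is a start codon, so these summits are upstream of the coding sequence of their frame. Frame 20 had a second, lower Rad21 peak in replicate 1 (37966468 to 37966736, fold 3.48), with its summit 350 bp after the frame start in a coding exon.

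**Figure D5:**
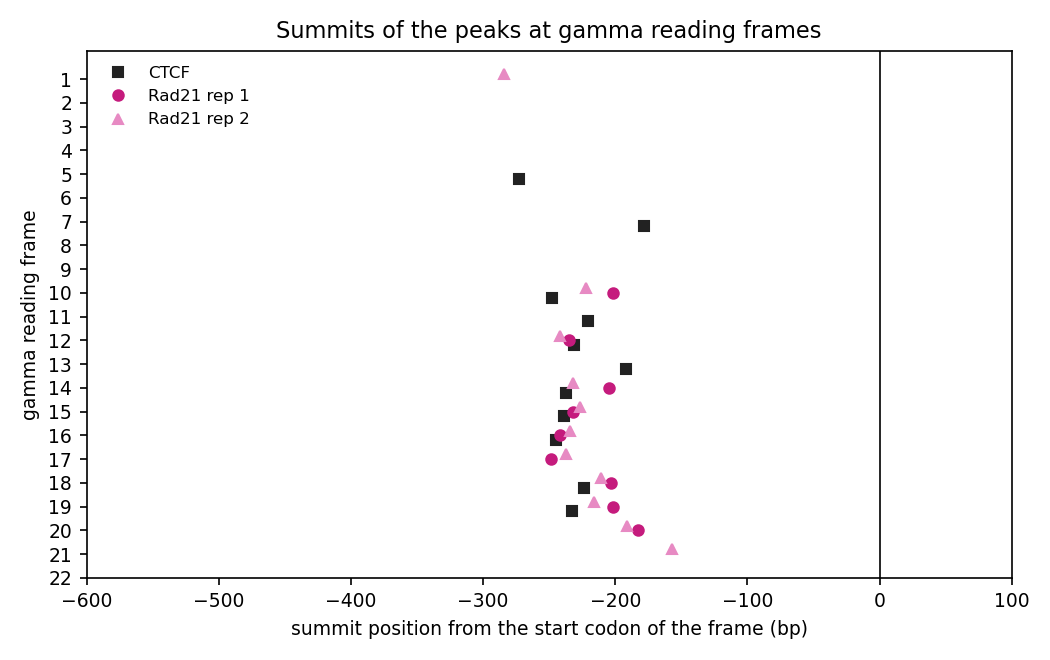
Summit positions of the highest CTCF and Rad21 peak within 2 kb of each frame start (horizontal axis, bp from the start codon, negative upstream) for the 22 gamma frames (vertical axis, in genome order). The summits shown are upstream of the start codon, between 157 and 284 bp from it, and a lower Rad21 replicate 1 peak at frame 20, 350 bp after it, is not plotted.

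The variable exons resemble each other, which bears on read placement. The share of 32-base words around a frame start (1000 bp on each side) that occur once in the genome was 69.6% to 100% in alpha (median 88.9%), 79.6% to 100% in beta (median 99.9%) and 81.3% to 100% in gamma (median 98.9%). Gamma frames with CTCF had a median of 90.2% and those without one of 99.9%. The sources used here do not say how reads that map to several places were handled, and the part of similarity in the peak calls was not tested.

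The core consensus of CTCF, a 13-base motif searched on both strands within 50 bp of a summit with at most 2 mismatches, was rarely met at these promoters. It was found at 0 of 11 gamma promoter peaks, against 72.4% of 35345 CTCF peaks. At most 3 mismatches were met by 7 of 11 (63.6%), against 84.8% of all peaks. Of these 7, 5 had the better match on the plus strand, the strand of the genes, and 2 on the minus strand. Over all CTCF peaks with at most 3 mismatches the counts were 14128 plus, 14381 minus and 1462 tied. CTCF peaks of the genome within the same fold range carried the motif with at most 2 mismatches in 74.9%.

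Motif matches also occur in the sequence before frame starts, mostly at frames with no CTCF peak. Most frames, 45 of 58, had no CTCF peak. In the 500 bases before the frame start, at most 2 mismatches on the plus strand were found at 5 of 14 alpha, 5 of 22 beta and 1 of 22 gamma frames, against 16.5% of the 22350 genes in the same length before the first TSS. On the minus strand they were found at 2, 0 and 0 frames, against 13.6%. The alpha and beta frames with a match had no CTCF peak. The gamma frame with a match, frame 19, had a CTCF peak, and the match lay more than 50 bp from its summit. The match is a description of the letters in that window.

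Inside the gamma model but away from promoters, 2 shared Rad21 regions were found. At 37995236 to 37995572 Rad21 folds were 4.53 and 6.40, within the shared H3K27ac region of 37993659 to 37997317 (folds 1.77 and 2.77). The H3K27ac peak of replicate 1 in that region had a −log10 q of 0.949, so it does not pass a q of 0.05. At 38000987 to 38001175, in a non-coding exon or UTR of the model, Rad21 folds were 5.06 and 5.79 and CTCF had a fold of 4.57 with a motif on the minus strand at 1 mismatch. H3K27ac at frame 21 was found in replicate 1 alone (fold 2.25), and Rad21 there in replicate 2 alone (fold 5.27).

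The 100 kb after the gamma genes held 8 CTCF peaks, 7 shared Rad21 regions and 4 shared H3K27ac regions. They lie in introns of Diap1, which encodes a formin that nucleates actin, or at its start. The whole genome had 1.38, 1.21 and 0.635 per 100 kb of called bases. In each of the 4 H3K27ac regions, the peaks of replicate 1 or of replicate 2 do not pass a q of 0.05. Their highest −log10 q was 0.710 in replicate 1 for the first region. For the others it was 0.369, 0.206 and 0.152 in replicate 2. In neural tissue regulatory elements of the cluster have been described beyond the gamma genes, but elements were not matched to these peaks. The highest CTCF peak of the cluster and its flanks, at 38043111 to 38043510, had a fold of 22.7 (98.4th percentile) with Rad21 folds of 34.0 and 35.1.

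At the start of Diap1, the region 38094854 to 38095490 had the highest Rad21 folds, 38.3 and 70.3, with a CTCF fold of 13.0. It spans the Diap1 TSS at 38095130 and overlaps H3K27ac peaks of both replicates (folds 2.43 and 1.58). Of the 8 CTCF peaks after the gamma genes, 6 overlapped shared Rad21 (75%). The motif with at most 2 mismatches was met by 5 (62.5%), 4 on the minus strand and 1 on the plus strand. Over all CTCF peaks 72.4% met it, 12411 on the plus strand, 12641 on the minus strand and 522 tied. The strand difference was not tested. Genes of the cluster run on the plus strand. Over all 24 CTCF peaks of the cluster with flanks, 14 overlapped shared Rad21 (58.3%), against 58.2% of all CTCF peaks.

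Other protocadherins lie outside the cluster. Of 12 such genes, 4 had CTCF (Pcdh1, Pcdh7, Pcdh8 and Pcdh15), 1 had shared Rad21 (Pcdh1) and 0 had H3K27ac in either replicate, against 26.4%, 31.5% and, for shared H3K27ac, 41.5% of all genes. Genes known to act on the clustered promoters were mostly marked in these cells. Shared H3K27ac was found at 10 of 12, among them Ctcf, Rad21, Smc1a, Smc3, Stag1 and Nipbl, which encode CTCF, cohesin subunits and the cohesin loader, and shared Rad21 at 9 of 12. Setdb1, a histone methyltransferase gene, had no H3K27ac peak, and Dnmt3b, a DNA methyltransferase gene, had one in replicate 1 alone.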

How the data were processed

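Peak lists of 5 ChIP-seq libraries on mm9 were used, 1 list per library. The submitters' processing notes name CASAVA 1.82 and 1.84, Bowtie 1.0.0, Bowtie2 2.3.2, HiC-Pro 2.7.8, Juicer 0.7.5 and MACS2 2.1.0 without roles. The sources used here do not give thresholds or controls. The deposited fold of a peak is a ratio, and the −log10 p and −log10 q values are as the authors' caller wrote them. The lists hold no read counts, so depth and its precision are unknown, and nothing says that replicates came from separate animals.

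Entries with equal coordinates were counted once. Replicate peaks were merged, and an overlap needed 1 bp. Gene models were GENCODE vM1 on NCBIM37, the assembly of mm9. Open reading frames of at least 2000 bases were kept where at least 2% of their 5-residue peptides occurred in another annotated member frame. A first limit of 10% had given 51 frames and left out 7 frames that start at or shortly after an annotated member TSS. After those had been looked at, the limit was lowered to 2%, and the counts under the first limit are given with the other alternatives. The members, lists and settings were chosen with earlier results of these data known. Full values were given for the first and last genes of families, members with the highest CTCF folds, members with H3K27ac, flanking genes and listed genes; for the merged gamma model the rule was applied to frames. Ptcra is not protein-coding in this annotation and was left out. The result of 1 further marker list is not reported here. Overlap, motif and frame searches were tested on simulated data. Python 3.11.15, numpy 2.4.6, pandas 2.3.3 and matplotlib 3.10.9 were used. No p-value was computed.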

Additional observations from a re-analysis of the deposited data

How the results depend on the processing

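Of the alternatives tried, 56 kept a value within 1.5 times the main count, or within its interval or spread, and 20 moved it; the causes were not tested. At a −log10 q of at least 5, genes with CTCF numbered 1, CTCF peaks in the cluster with flanks 10, shared H3K27ac regions 0 and frames with CTCF 5. The share of these 10 CTCF peaks with shared Rad21 was 100%. At this limit 1 gene was left, Pcdhgc5, and its promoter summit lay 67669 bp from its first TSS. The main value, the median of 3 genes, was −93 bp. The fold percentile of this 1 gene was 79.7 (main value, the median of 3, 12.6). At a CTCF q of at most 0.05 the genes with CTCF numbered 1, and the share with Rad21 was 82.4% of 17 peaks. The distance, again of 1 gene, was then 51337 bp and the percentile 79.7. For the merged Pcdhgc5 model the distance is counted from its first TSS. The share with Rad21 over all CTCF peaks is known here for the whole list only (58.2%), not at these 2 limits. With the first TSS alone, genes with shared Rad21 and with CTCF and shared Rad21 numbered 0. Without flanks there were 11 shared Rad21 and 2 shared H3K27ac regions and 6.25% of CTCF peaks had the motif, and with flanks of 200 kb there were 13 shared H3K27ac regions. Leaving out a H3K27ac replicate gave 0 to 1 genes, 0 to 1 frames and 9 to 13 regions, the higher value of each without replicate 2. Under the first similarity limit of 10%, 12 of 51 frames had CTCF, 7 shared Rad21 and 0 shared H3K27ac, against 13, 9 and 0 of 58. Settings for frames were chosen after seeing the data. No paired analysis was possible because no result comes from a test between groups. The lists give no depth, and CTCF has 1 library. The CTCF peaks in alpha, in beta, between beta and gamma and at gamma frames 5 and 13 do not pass a q of 0.05. Nor do the H3K27ac peaks of 1 replicate in each shared region inside the gamma model and after it.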

Other observations

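Other gene families that lie in clusters were described in the same way. CTCF was present within 2000 bp of a TSS at 13 of 1113 olfactory receptor genes (Olfr, 1.17%), 1 of 202 Vmn1r and 1 of 119 Vmn2r pheromone receptor genes, and 0 of 9 Ugt1a genes. Among 39 Hox genes, transcription factors of the body axis, 8 had CTCF (20.5%), 10 had shared Rad21 (25.6%) and 1 had shared H3K27ac. All protein-coding genes together had CTCF in 26.4%, shared Rad21 in 31.5% and shared H3K27ac in 41.5%.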
